A study of Arabidopsis thaliana with 7 samples.

Results

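QQS (Qua-Quine Starch, locus AT3G30720 on chromosome 3) was measured by 1 probe set on 7 Arabidopsis arrays. It is 1 of 13286 genes that could be named and compared. It was chosen by its signals on these same arrays, which earlier results had shown to be higher in the lines without WRKY40, so its own levels and ratios are given as a description and carry no test. Each group also had 1 array, so no replicate error exists for any value below.

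QQS is an orphan gene: a protein-coding gene of Arabidopsis thaliana with no recognisable relative in other species. It takes its name from plants with reduced QQS transcript, whose leaves hold more starch, while plants that overexpress it hold less starch and more protein. The QQS protein binds NF-YC4, a subunit of a nuclear transcription factor complex. In Col-0 and in wild accessions, QQS transcript levels are known to vary with DNA methylation near its start, in a stretch of genome rich in transposon remnants. WRKY40, WRKY18 and WRKY60 form the group II-A WRKY transcription factors, which bind W-box elements in promoters and act partly redundantly in defence against bacteria.

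RNA came from whole rosettes of plants 14 days old. Wild-type Col-0 plants received either MgCl2 as a mock treatment or Pst-DC3000, a coronatine-producing strain of the bacterial pathogen Pseudomonas syringae. T-DNA knockout lines of WRKY18, WRKY40, WRKY53 and WRKY60, and a WRKY18/40 double knockout, were sampled after Pst-DC3000 only. The alleles, the number of plants per array and the harvest time were not given in the sources used here, and no mutant was sampled after the mock treatment.

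A floor of 22.1 signal units, found by averaging the 40th percentile of signal across the arrays, was taken as the level below which signals have no order. The knockout label could be checked for WRKY53, whose signal was 3.07 on its own mutant array and 79.3 to 358 on the others. No probe set named for WRKY18, WRKY40 or WRKY60 alone was available, so the WRKY40 labels on which the QQS comparison rests were not checked. Of 7 leaf and root markers, 2 had a named probe set, both Calvin cycle genes of green tissue. SBPASE was at 962 to 1573 and PRK at 1053 to 1756 on the 7 arrays. No root marker had a named probe set, so leaf identity was not checked against one. The wrky60 array stood apart: its bacterial spike-in controls were brighter, by a median of 6.83-fold, and its 40th percentile was 31.3 against 20.1 to 21.6 elsewhere.

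The QQS signal was 12.4 in mock-treated Col-0 and 21.6 in Col-0 after Pst. It was 11.8 on the wrky18 array, 27.0 on the wrky53 array and 6.70 on the wrky60 array. It was 150 (149.5) on the wrky40 array and 76.2 on the array of the wrky18 wrky40 double mutant. The 2 arrays of lines lacking WRKY40 therefore held the highest and second highest signals, and their values did not overlap with those of the other 5. In signals without the floor, 506 of 13286 genes had both arrays above the other 5. Of those 5, only the wrky53 array was above the floor, so the order among mock, wild-type Pst, wrky18 and wrky60 cannot be read. In RNA of whole rosettes, fewer cells with the transcript and less transcript per cell cannot be told apart.

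**Figure D1:**
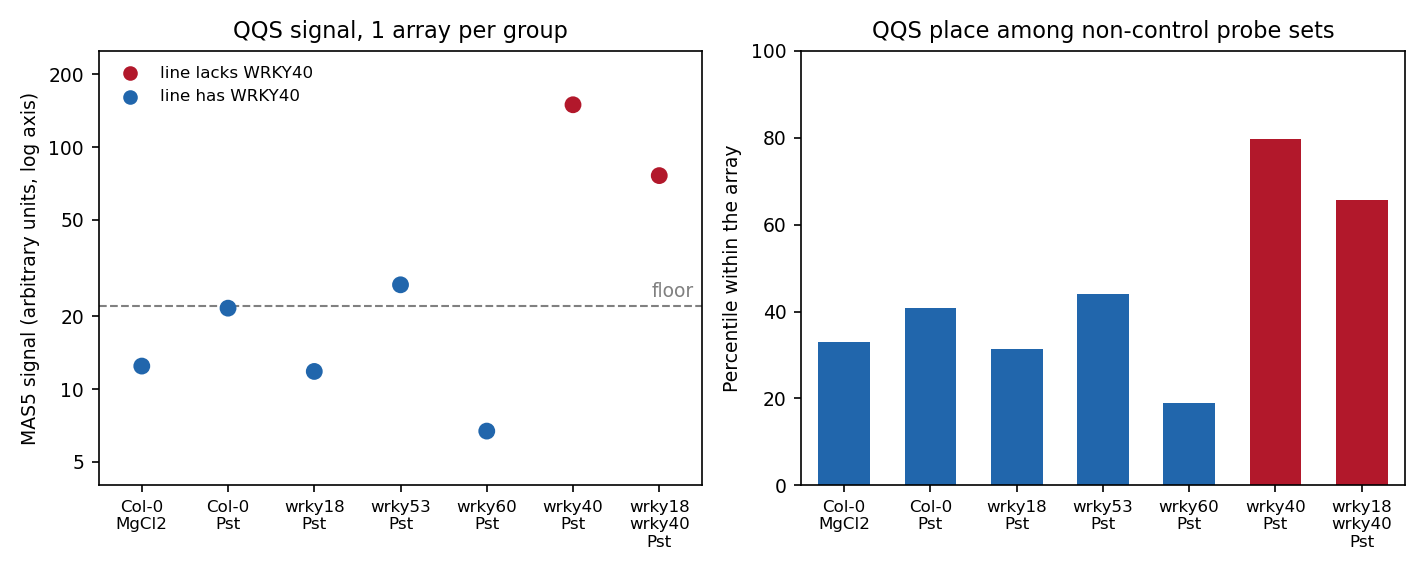
QQS on the 7 arrays, 1 point or bar per array. The left panel shows the MAS5 signal on a log axis with the floor of 22.1 as a dashed line, and the right panel shows the percentage of non-control probe sets on the same array with a lower signal. The wrky40 and double mutant arrays (red) lie at 149.5 and 76.2, and the other 5 (blue) at 6.70 to 27.0.

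The position of QQS within each array does not depend on scaling between arrays. It restates the same signals by which QQS was chosen, so it is no second measure of the separation. The QQS signal exceeded that of 79.6% of non-control probe sets on the wrky40 array and 65.6% on the double mutant array. On the other arrays it exceeded 44.1% (wrky53), 40.9% (Col-0 after Pst), 32.9% (mock), 31.3% (wrky18) and 18.9% (wrky60). These positions compare arrays and do not compare QQS with other transcripts, since probe sets differ in how brightly they hybridise.

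The wrky40 single mutant was compared with Col-0 after Pst. QQS was at least 6.77-fold higher on the wrky40 array (log2 ratio at least 2.76), because the wild-type signal lay just below the floor. The wrky60 array, with the highest 40th percentile, raised this averaged floor. The wild-type signal of 21.6 was above the 40th percentile of its own array, 20.3. Without the floor the ratio was 6.93-fold. In this comparison 8 genes, or 0.0602% of those compared, were at least 2-fold higher while 0.0828% were lower by that much, and QQS had the highest ratio of all 13286. The next genes in order were AT1G26380 at 2.66-fold, AT1G15840 at 2.63-fold and AT3G27470 at 2.44-fold. With the floor raised to the 60th percentile, QQS remained at least 2-fold higher, at a log2 ratio of at least 1.30, and was the only gene to do so.

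In the double mutant QQS was at least 3.45-fold higher than in Col-0 after Pst (log2 ratio at least 1.79). Here 95 genes, or 0.715%, were at least 2-fold higher while 0.0828% were lower by that much, and QQS was 9th in order from the highest. With the floor at the 60th percentile the log2 ratio fell to 0.33, below 2-fold, because 76.2 then lies close to the floor. Against the wrky18 array the double mutant was also at least 3.45-fold higher, where 0.745% of genes were at least 2-fold higher. The wrky18 single mutant and Col-0 after Pst were both below the floor, so no fold is given between them. The line lacking WRKY18 alone thus had a QQS signal of 11.8, and the line lacking both factors 76.2.

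QQS was 1.96-fold lower in the double mutant than in the wrky40 single mutant, a difference in which both signals were above the floor. The log2 ratio was -0.97, short of the 2-fold that 0.113% of genes reached in this direction. A change at least that large, in either direction, was seen in 85 of 13286 genes between these arrays. With 1 array each, this difference cannot be set against the variation between plants of the same line.

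Infection of the wild type gave no measurable change, since 12.4 in mock and 21.6 after Pst were both below the floor. Against mock-treated Col-0, QQS was at least 6.77-fold higher on the wrky40 array and at least 3.45-fold higher on the double mutant array, while 0.963% and 1.29% of all genes were at least 2-fold higher. These bounds equal those against infected Col-0 because both wild-type signals were replaced by the same floor. The wrky53 array, at 27.0, was at least 1.22-fold above Col-0 after Pst, and 0.128% of genes were at least 2-fold higher there. The wrky60 array, at 6.70, was below the floor, on an array where 6.41% of genes were at least 2-fold higher than in Col-0 after Pst. Without a mock-treated wrky40 or double mutant array, the higher QQS signal cannot be assigned to infected plants only.

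To describe how common the QQS pattern was, the lower of the 2 arrays lacking WRKY40 was set against the highest of the other 5 for every gene. For QQS this gap was 2.83-fold, between 76.2 on the double mutant array and 27.0 on the wrky53 array, both above the floor. Of 13286 genes, 294 (2.21%) had both arrays above the other 5 by any margin, and 1 gene (0.00753%), QQS itself, by at least 2-fold. AT3G43250 followed at 1.79-fold and AT4G08780 at 1.73-fold. In the opposite direction 334 genes (2.51%) had both arrays below the other 5, and 0 did so by at least 2-fold. QQS was chosen for this pattern, so its place describes these arrays and is no evidence of an effect of WRKY40.

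**Figure D2:**
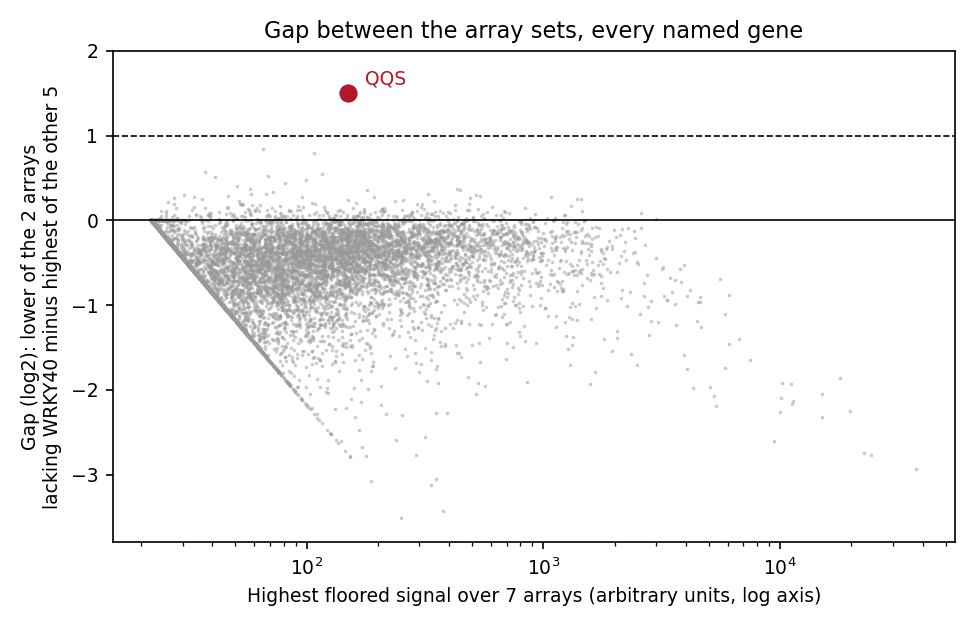
Gap on the log2 scale (vertical axis) against the highest floored signal over the 7 arrays (horizontal log axis) for each of 13286 genes. Points above 0 have both arrays lacking WRKY40 above the other 5, and the dashed line marks 2-fold. QQS, in red, is the only point above that line, at a gap of 2.83-fold.

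The gap of QQS was still 2.83-fold when the wrky60 array or the mock array was left out, since the wrky53 array sets its lower edge. In the signals as deposited, without a floor, 18 genes had a gap of at least 2-fold and QQS was 5th among them. The other 17 were below the floor on all 7 arrays, and QQS was the 1 gene above it on any. Between the lowest and highest floored signal QQS varied at least 6.77-fold, which placed it 63rd of 13286 genes by range, and 40th without the wrky60 array. Over the 5 arrays of lines with WRKY40 the range was at least 1.22-fold, since every signal but that of wrky53 was replaced by the floor. Without the floor these signals ran from 6.70 to 27.0.

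Besides QQS, 2 genes were at least 2-fold higher than infected Col-0 on both arrays lacking WRKY40, so that 0.0226% of genes met this condition. Both comparisons share the wild-type Pst array. AT1G26380 had signals of 76.0 on the wrky40 array and 291 on the double mutant array, against 28.5 in Col-0 after Pst. It was at 117 in mock-treated Col-0 and 70.0 in wrky18, so its groups overlapped. AT1G08940 had 116 (115.5) and 201 against 55.4, with 114 (113.5) on the wrky18 array. In both genes the double mutant was above the wrky40 single mutant, whereas QQS was lower in the double mutant.

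The genes whose pattern over the 7 arrays was most like that of QQS were ranked by Pearson's r of log2 floored signals among 2354 genes with a mean signal at the floor or above and a range of at least 2-fold. AT3G13225 came first, with r = 0.89 and Spearman's rho = 0.81. Its signals were 52.4 on the wrky40 array and 38.9 on the double mutant array, against 17.0 to 34.0 on the other 5. AT3G27470 followed at r = 0.84, with 53.9 on the wrky40 array but 29.5 on the double mutant array, within the range of the others. AT3G43250 (r = 0.82) had 39.6 and 65.5, against signals below the floor on all 5 others. It passed the mean-signal filter only through those 2 arrays, so its place here is partly set by the filter. AT1G28190, AT5G48240, AT1G28600, AT2G43320 and AT4G08780 had r from 0.79 to 0.82. All 8 genes passed the 2-fold range filter only through the arrays lacking WRKY40. On the other 5 arrays each spanned less than 2-fold after the floor, for example 37.9 to 65.9 for AT5G48240. The filter thus favours genes that differ on those 2 arrays, and the likeness is no support for a shared pattern. Of the 8 genes, AT3G43250 and AT4G08780 were at least 2-fold above infected Col-0 on the double mutant array, and AT3G27470 on the wrky40 array. Of all genes, 0.715% and 0.0602% were at least 2-fold higher on these arrays. Choosing genes by range and likeness to QQS favours such differences, so these cases are a description only.

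**Figure D3:**
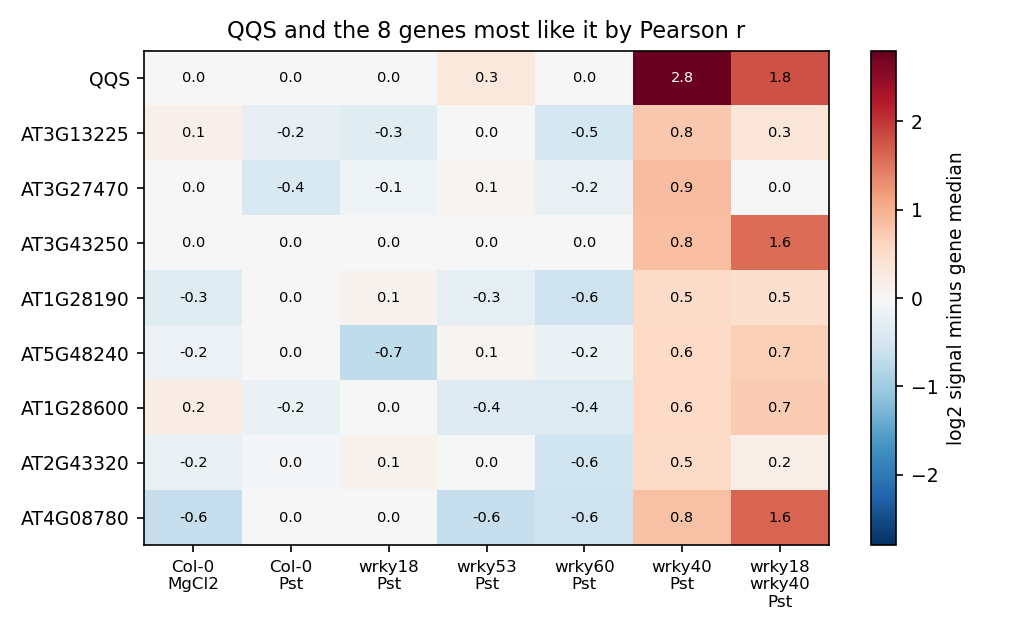
Log2 floored signal minus the gene's median over the 7 arrays, for QQS and the 8 genes with the highest Pearson r with it. Columns are arrays, rows are genes, and red marks a signal above the median. The QQS row reaches 2.76 on the wrky40 array and 1.79 on the double mutant array. All 8 other genes have their highest or second highest value on the wrky40 array, which follows largely from choosing them by range and by likeness to QQS.

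This likeness rests on 7 points, and for QQS almost wholly on the 2 arrays lacking WRKY40. On the others its floored signal was flat apart from wrky53. With Spearman's rho in place of r, 0 of the 8 genes remained among the 8 most alike. Without the wrky60 array 2 remained, AT3G13225 and AT3G27470, and without the wrky40 array 1, AT3G43250. The genes least like QQS were AT5G63380 (r = -0.85), AT2G16380, AT3G43670 and the cytochrome P450 gene CYP84A4 (each r = -0.83). AT5G63380 had 21.4 on the wrky40 array and 33.3 on the double mutant array, against 33.1 to 53.4 on the others. These least-like genes also passed the 2-fold range filter only through the arrays lacking WRKY40.

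Genes of starch metabolism were examined beside QQS, because QQS is known for its effect on leaf starch. Of 47 genes in lists of starch synthesis and degradation, 8 were represented by a named probe set, and 5 of these had means no lower than the floor. On the wrky40 and double mutant arrays all 5 had lower signals than infected Col-0, the same single array in both comparisons. Of all 7259 measured genes, 50.1% and 55.3% were lower in these comparisons. The largest difference was 1.64-fold, so 0 of the 8 reached 2-fold, which few genes did at all (on the wrky40 array 0.0602% higher and 0.0828% lower, on the double mutant array 0.715% and 0.0828%).

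SBE2.2, a starch branching enzyme, had 145 on the wrky40 array and 113 on the double mutant array, against 153 (152.5) to 204 on the other 5. It was the 1 starch gene of the 8 for which both arrays lay below all the others, with a gap on the log2 scale of 0.07. Of all 13286 genes, 2.51% had both arrays below the other 5. PWD (AT5G26570), which phosphorylates starch granules ahead of their breakdown, had 423 and 328, against 406 to 575. DPE1, the chloroplast disproportionating enzyme that acts on short maltooligosaccharides, had 134 and 101, against 86.3 to 173. The arrays overlapped in these last genes.

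GWD2 (AT4G24450), a glucan water dikinase gene, had 24.6 and 16.1, against 21.1 to 37.5, close to the floor throughout. AT5G39790, entered in the synthesis list, had 52.6 and 53.0, against 37.7 to 75.3. The remaining genes had means below the floor. They were AMY1, an alpha-amylase gene, and APL3 and APL4, which encode large subunits of ADP-glucose pyrophosphorylase.

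The median log2 ratio of the 5 genes to infected Col-0 was -0.33 on the wrky40 array and -0.53 on the double mutant array, where the medians over 7259 measured genes were -0.00069 and -0.04. It was -0.38 on the wrky18 array, with all 5 genes lower, and -0.27 on the wrky60 array, with 4 lower and 1 higher. Of all measured genes, 54.2% were lower on the wrky18 array and 48.9% on the wrky60 array, with medians of -0.04 and 0.008. On the wrky53 array all 5 were higher, with a median of 0.23, where 53.1% of all measured genes were higher and their median was 0.02. All these ratios share the infected Col-0 array. On it, 4 of the 5 genes were themselves higher than in mock-treated Col-0, with a median of 0.21, where 50.9% of all measured genes were higher. Against the mock array, 3 of the 5 were lower and 2 higher on the wrky40 array, with a median of -0.00054. On the double mutant array 4 were lower and 1 higher than mock, with a median of -0.32. Of all measured genes, 47.9% were lower than mock on the wrky40 array and 52.1% on the double mutant array. The lower starch gene signals on the wrky40 array thus depended on which Col-0 array was the comparator.

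**Figure D4:**
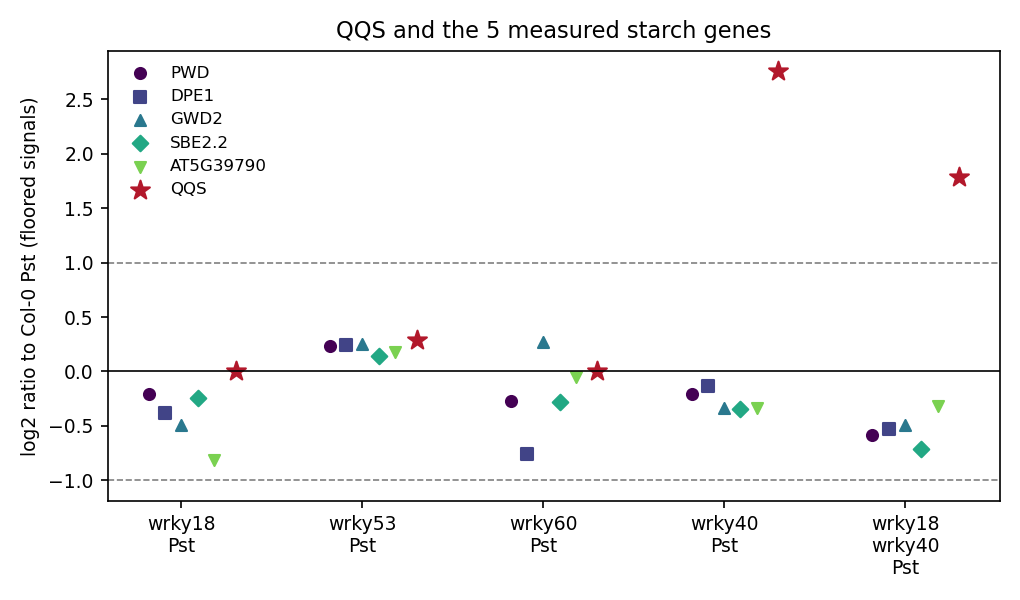
Log2 ratio of floored signal to Col-0 after Pst for the 5 measured starch genes and QQS (red stars) on the 5 mutant arrays. Dashed lines mark 2-fold. The starch genes lie between -0.81 and 0.27 throughout, whereas QQS is at 2.76 and 1.79 on the wrky40 and double mutant arrays.

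The chromosomal surroundings of QQS were described through the genes nearest to it in the TAIR10.1 gene table. Among the 8 genes on each side, 12 of 16 are pseudogenes and 3 are protein-coding. The 10 nearest genes with a named probe set, 5 on each side, were all below the floor in their mean signal, and 8 of them were below it on every array. Between QQS and these genes lay 3 to 36 other genes of the table. The closest before QQS, the pseudogene AT3G30710, had signals of 1.03 to 18.3, all below the floor. The closest after it, AT3G30730, had 47.0 on the wrky60 array and was below the floor on the others. With so few signals above the floor, no pattern across the arrays could be read for these genes.

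Of the proteins and silencing factors linked to QQS, few could be examined. DME, a DNA demethylase, was the only one of 26 DNA methylation and silencing genes with a named probe set. Its signal was 72.4 on the wrky40 array and 64.9 on the double mutant array, against 68.3 to 102 on the others, so the arrays overlapped. The list of NF-YC4, NF-YB7 and the energy-sensing kinases KIN10 and KIN11 had 0 of 4 genes with a named probe set, and these were not analysed here.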

How the data were processed

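The authors deposited 1 linear signal intensity per probe set, computed with MAS5 per the submitters' processing notes. No version was stated. MAS5 combines the probes of a set and brings arrays to one trimmed mean, and with 2% trimmed at each end all 7 arrays had a mean of 100.01. Intensities were used without further scaling. The number of arrays limits the precision, and detection calls were not used here.

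Of 22746 non-control probe sets, the platform annotation gave 1 gene for 13513, several for 503 and none for 8730. Of the 13513, 13436 matched the TAIR10.1 gene table, which was used for names and neighbours only. The probe set with the highest mean signal was kept per gene, leaving 13286 genes. Signals under the floor were set to it before log2, so a ratio against such a signal is a lower bound. Since every group had 1 array, differences were sized at 2-fold and no test was run. No batch information was given.

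QQS, the gene lists and the rule for named genes were chosen with earlier results of these data known. Named were QQS, the 8 genes most and 4 least like it, genes at least 2-fold apart in both arrays lacking WRKY40, up to 6 members per list by signal, 5 probed neighbours on each side, and the 3 next in the wrky40 order. Genes named for gaps under 2-fold (AT3G43250, AT4G08780, AT3G59780 and an unnamed probe set) were chosen after their values were seen. A planned search of the QQS promoter for W-boxes was not run, since its sequence was not used here. The functions were tested on simulated data. Alternatives were other floors, scalings, probe-set rules and comparators. Normalizations ran in limma 3.58.1 under R 4.3.3, and the rest in Python 3.11.15 with pandas 2.3.3.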

Additional observations from a re-analysis of the deposited data

How the results depend on the processing

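The direction of the QQS ratio for the wrky40 and double mutant arrays over infected Col-0 was the same under every alternative run, and QQS stayed at least 2-fold higher on the wrky40 array under all of them. Of 232 recomputed values, 178 moved by less than 1.5-fold and 54 moved by more, 0 with a change of sign in a ratio of 2-fold or more. With the floor at the 60th percentile the gap of QQS was 0.33 on the log2 scale, as were the double mutant ratios to mock, infected Col-0 and wrky18, and the wrky40 ratios to mock and infected Col-0 were 1.30. In that setting 0 genes had a gap of 2-fold. With log2 of signal plus the floor value, the ratios to infected Col-0 were 1.97 for wrky40, 1.17 for the double mutant and -0.60 for wrky60. With the floor at the 25th percentile or with signals as deposited, which give weight to signals near background, the double mutant was 2.61 above mock and 2.69 above wrky18, wrky40 was 3.59 above mock, infected Col-0 was 0.79 above mock and wrky18 was at -0.87 to infected Col-0. The wrky60 ratio was -1.38 with the lower floor and -1.69 as deposited, where 18 genes had a gap of 2-fold.

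Counts of genes at least 2-fold higher depended on the floor by its construction. For wrky40 over infected Col-0 they were 183 with the 25th percentile, 1 with the 60th, 3 with signal plus floor and 1640 as deposited. In the same order they were 185, 48, 55 and 1431 for the double mutant, 118, 5, 3 and 1400 for wrky18, 88, 8, 6 and 1181 for wrky53, and 237, 77, 83 and 1320 for infected Col-0 over mock. For wrky60 they were 2293, 165 and 4110 with the 25th, the 60th and as deposited, 394 with cyclic loess and 548 with quantile normalization, and median centring gave 27 for wrky18. Of the 8 genes most like QQS, 0 remained with Spearman's rho, 0 with the 25th percentile floor, 2 without the wrky60 array, 1 without the wrky40 array and 5 without the double mutant array, the last 2 settings added after seeing the data. The synthesis list had too few measured genes for a median. The cause of other moves was not tested.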

Other observations

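Among all 22746 non-control probe sets, named or not, QQS was again the only one with both arrays lacking WRKY40 at least 2-fold above the other 5, a count added after seeing the data. A probe set with no gene name in the annotation used had 94.2 on the wrky40 array and 91.1 on the double mutant array, against 31.7 to 51.4 on the others, a gap of 1.77-fold. In the opposite direction, among the 13286 named genes, the widest gap was that of AT3G59780, at 56.0 and 34.1 against 83.4 to 109, or 1.49-fold.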
